A study of Arabidopsis thaliana with 9 samples.

Results

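The 24-nt siRNA clusters of the chromosome arms are the small RNA loci outside the pericentromeres whose most abundant RNA, called here the leading RNA, is exactly 24 nt long. They were taken from a table of 33171 features measured in shoots of wild type Arabidopsis Col-0, in which 28897 clusters were placed on nuclear chromosomes 1 to 5. A cluster was counted on an arm when its midpoint lay outside 11500000 to 17700000 on chromosome 1, 1100000 to 7200000 on chromosome 2, 10300000 to 17300000 on chromosome 3, 1500000 to 6300000 on chromosome 4, and 9000000 to 16000000 on chromosome 5 of TAIR10. This gave 6008 clusters, which are 20.8% of the nuclear clusters and 36.2% of the 16606 clusters of every size on the arms. The size of the leading RNA and the position chose the members, and the levels under the 3 iron treatments did not. A further 8525 clusters led by a 24-nt RNA lay in the excluded pericentromeric intervals and are set beside the members below.

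There were 9 libraries of wild type plants, 3 biological replicates for each treatment, and all plants spent 14 days on medium with iron before they were moved. The -Fe plants then had 3 days and a further 24 hours without iron. The Fe resupply plants had 3 days without iron and 24 hours with iron again, and the +Fe plants kept iron throughout both moves. The labels put the plants on 1/2X MS plates but also describe growth in soil, and in libraries from whole shoots fewer cells of a type and less siRNA per cell cannot be told apart. The values were log2 normalized abundances with no read counts, so the depth of the libraries is unknown and no detection limit is given. On this scale replicates of a treatment correlated across features with r from 0.994 to 0.996.

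In plants, 24-nt siRNAs are made mostly by the RNA-directed DNA methylation (RdDM) pathway. RNA polymerase IV transcribes a locus, RDR2 makes the transcript double-stranded, and DCL3 cuts it into short duplexes. One strand is loaded into AGO4 or a relative, which favours RNAs that begin with adenine, and guides DNA methylation through polymerase V transcripts and the methyltransferase DRM2. On the arms this pathway is known for acting on short transposon remnants and repeats near genes, while the large silent repeats around the centromeres are also kept methylated in other ways.

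The leading RNAs that the results below turn on are printed here 5′ to 3′ as deposited, with the 5′ base, on which sorting into AGO4 depends, in capitals. The first set are the leading RNAs shared by the most members, the second led the members that were highest in abundance, and the third led members whose level differed between treatments.
RNA of 13 members: Agggcuuauuggaucuaaagacgg
RNA of 9 members: Aauaugacguugugaaaucuaacc
RNA of 9 members over tRNA genes: Gguuucgugguguaguugguuauc
Cluster_11849: Cagaagacucuccauauauauugg
Cluster_24127 (CAB1): Cugaguugaaggugaaggagcuca
Cluster_28189 (MIR163): Uugaagaggacuuggaacuucgau
Cluster_24125 (CAB3): Cggaguugaaggugaaggagcuca
Cluster_15318 (LHCA1): Uggagaaagacccugagaagaaga
Cluster_28019 (CDI): Aguuugcggaucuuuggcuuaaug
Cluster_22617 (AT1G07135): Uacauuaagguguagacuguuaau
Cluster_15485 (bHLH39): Guaagaagcuacuccgacucauug
Cluster_22726 (SRC2): Acaaucgucuuacucuuguuuucg
Cluster_11124 (BTS): Uucaaaagacaacaagaacuucuc
Cluster_3262 (OPT3): Uugacugggcuggcaucucugcuu
Cluster_3950 (FSD1): Aaacaaacucuggaguuucacugg
Cluster_26749 (AT1G49260): Aagaccuuguggagcuuucccaua
Cluster_14917: Ucuaucuggcuugguaucugagau
Cluster_3452: Acggucaaucuacgucuuuggagu
Cluster_17452: Aucaaacgcuucuuagaacaaaga
Cluster_10265: Agggcucagcugaaucuaguuuuc
Each of the listed single-cluster RNAs was found once in the nuclear genome, except the RNA of the CAB3 cluster, which was found at 2 places. Those at CDI, FSD1, AT1G49260 and SRC2 begin with A and lie in the sense strand of an exon, and those at bHLH39, BTS, OPT3 and AT1G07135 begin with G or U.

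The members were spread over all chromosomes, with 1641 on chromosome 1, 1041 on chromosome 2, 1012 on chromosome 3, 1017 on chromosome 4 and 1297 on chromosome 5. Their density was 68.2 clusters per Mb on the arms, against 274 per Mb for 24-nt clusters in the pericentromeric intervals. It was 126 per Mb within 1 Mb of the intervals, 97.3 per Mb between 1 and 3 Mb, 67.3 per Mb between 3 and 6 Mb, and 40.6 per Mb beyond 6 Mb. Neighbouring members had a median gap of 6316 nt, and 1525 of the 6003 gaps (25.4%) were at most 1000 nt. At the 10 limits themselves, the members nearest to the boundary had mean levels from 3.65 to 8.87 on the log2 scale, and the nearest 24-nt clusters beyond it from 2.46 to 8.35. Of the arm clusters just outside the size limit, 1961 were led by an RNA of 23 nt, with a median level of 4.09, and 526 by one of 25 nt, with a median of 3.13. These are descriptions of the rule and were not tested.

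Members were narrower than pericentromeric 24-nt clusters and lay closer to the starts of protein-coding genes. Their median width was 471 nt (30 to 8076), against 742 nt (34 to 16263) in the pericentromeres, and their median distance from the start of a protein-coding gene was 1198 nt, against 4541 nt. The median of the mean levels was 4.94 for members and 3.99 for pericentromeric clusters on the log2 scale, which does not correct for width. Of the 6008 members, 2660 (44.3%) overlapped an annotated gene of any kind, pseudogenes included, against 53.2% in the pericentromeres. Protein-coding genes were overlapped by 1831 members (30.5%), pseudogenes by 676 (11.3%), tRNA genes by 35 and miRNA genes by 35, and a member can overlap several kinds. A further 1893 (31.5%) lay only within 1000 nt upstream of a gene, and 1455 (24.2%) at neither. Among the 8525 pericentromeric clusters, pseudogenes, under which many transposon genes are annotated, were overlapped by 40.6% and protein-coding genes by 12.2%. The leading RNA was found exactly within its cluster for 5948 members (99.0%), and at a single place in the nuclear genome for 4330 members (72.1%), against 61.7% of pericentromeric clusters. No test was made of these differences.

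The leading RNA of most members had the 5′ adenine that AGO4 favours. It began with A in 4373 members (72.8%), with U in 10.9%, G in 10.7% and C in 5.68%, and the share of A was 75.2% in the pericentromeres. Among arm clusters led by RNAs of 23 nt the share of A was 39.5%, and among those led by 21 nt it was 34.9%. Along the rest of the members' RNAs, A took 44.0% of position 22, and at position 24 U took 36.6% and C 30.3%, whereas from position 4 to 20 A took between 23.2% and 35.6%.

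The 5′ base differed with the place of the leading RNA. In 808 members it lay in the sense strand of an exon of a protein-coding gene, and of these 45.0% began with A and 25.2% with U. In the antisense strand of an exon (271 members) 76.8% began with A, in introns 75.1% of 281 members, at pseudogenes with no protein-coding gene 78.0% of 617 members, and where no gene was overlapped 78.0% of 3348 members. Of the 35 members over tRNA genes 28 were led by an RNA beginning with G. Sense exon members were also weaker, with a median level of 3.55, against 5.17 for the other 5200 members, of which 77.1% began with A. Their share grew with distance from the pericentromere, and was 6.68% of members within 1 Mb of the limits and 22.7% beyond 6 Mb. In the pericentromeres there were 200 sense exon clusters among 8525, of which 60.0% began with A. For these 808 members, as for all other members, the name siRNA rests on the length of 1 RNA. How that RNA was made was not tested for any member. The other members include clusters over tRNA genes and over miRNA genes, and whether the name siRNA holds there was not tested.

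**Figure D1:**
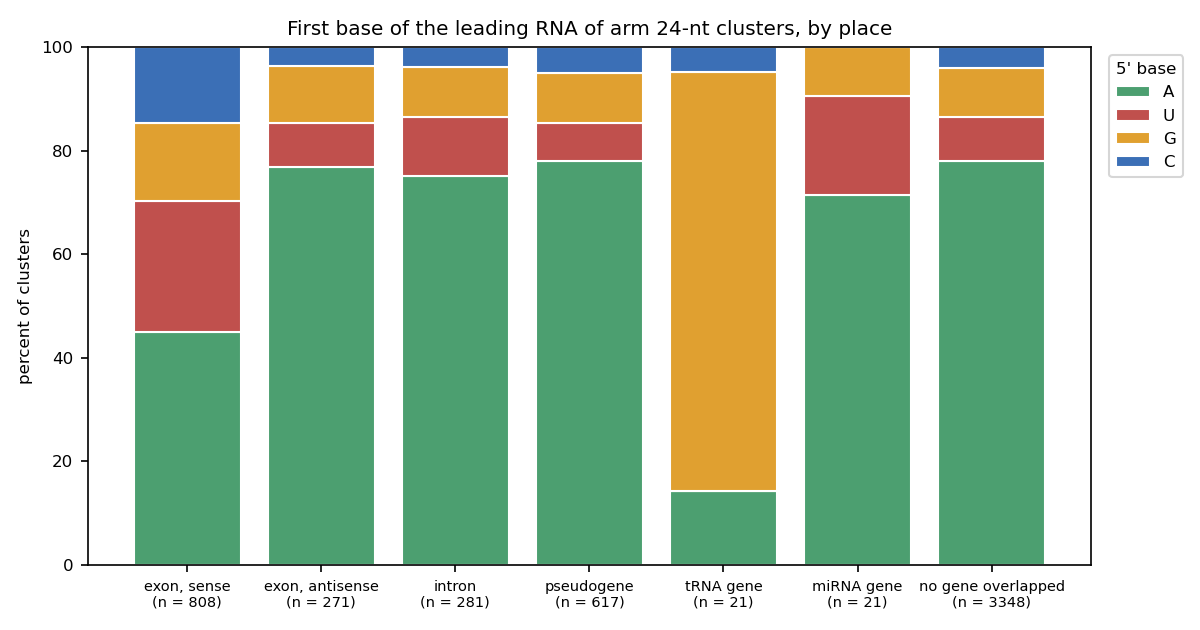
Percent of arm 24-nt clusters (y axis) whose leading RNA began with A, U, G or C, by the place of that RNA (x axis, with the number of clusters). A took 45.0% in the sense strand of exons and 76.8% in the antisense strand, and G led at tRNA genes. Clusters that also overlap a protein-coding gene are left out of the pseudogene, tRNA and miRNA bars.

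Of the 5 most abundant members, 4 overlapped protein-coding genes and 1 a miRNA gene, and none was led by an RNA beginning with A. The highest was Cluster_11849 on chromosome 3 from 10007791 to 10008803, whose leading RNA lies beside AT3G27140, annotated as a protein phosphatase 2C family gene, and begins with C. Its level was 11.90, 11.92 and 11.80 in the -Fe libraries, 12.07, 12.21 and 12.04 in the Fe resupply libraries, and 12.04, 11.91 and 11.81 in the +Fe libraries. Next came the cluster over CAB1 on chromosome 1 from 10477936 to 10479488, with 11.94, 11.79 and 11.96 in the -Fe libraries, 12.00, 11.73 and 12.00 in the Fe resupply libraries, and 11.95, 12.16 and 11.88 in the +Fe libraries. CAB1, CAB3 and LHCA1, 3 of the 5 highest members, encode chlorophyll-binding proteins of the photosystem antennae, and the leading RNAs lay in the sense strand of their coding sequence. The third of the 5, on chromosome 1 from 24883981 to 24884471, lay over MIR163, the gene of miR163, a miRNA that is 24 nt long, with 11.63, 11.63 and 11.55 in the -Fe libraries, 11.64, 11.54 and 11.39 in the Fe resupply libraries, and 11.21, 11.23 and 11.53 in the +Fe libraries. None of the 5 passed in a comparison. Between -Fe and +Fe the libraries overlapped for all but the MIR163 cluster, whose -Fe libraries were all above its +Fe libraries, with a log2 fold change of 0.28 ± 0.10 (SE, n = 3 each, limma adjusted p = 0.375).

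Some leading RNAs were shared. The 6008 members had 5588 distinct leading RNAs, and 664 members (11.1%) shared theirs with another member. The RNA of 13 members was found at 47 places in the nuclear genome, and its members overlapped no gene, were 94 to 415 nt wide and had mean levels from 2.45 to 5.14. The RNA beginning with Aauaug led 9 members on chromosomes 1, 2 and 5, with 21 genome matches and mean levels from 3.37 to 7.47. The third, beginning with G, led 9 members that all overlapped tRNA genes, with mean levels from 4.55 to 7.99. None of the members of these families passed in a comparison. Members with a shared RNA are not independent loci, since the same reads can be given to each.

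The level of the members as a whole differed little between treatments. Summed over the members after undoing the logarithm, it was 419576, 410826 and 417092 in the -Fe libraries, 418221, 452542 and 437475 in the Fe resupply libraries, and 438147, 428672 and 428576 in the +Fe libraries. All 3 -Fe libraries lay below all 3 +Fe libraries, and the ratio of the means was 0.963 ± 0.016 (SD carried over from the libraries, n = 3 each). The Fe resupply libraries overlapped both other groups. The same sums over pericentromeric 24-nt clusters averaged 404617 ± 2052 in -Fe, 423350 ± 17628 in Fe resupply and 416695 ± 1666 in +Fe (SD, n = 3 each), so the members stood at 1.03, 1.03 and 1.04 times the pericentromeric sum. The median log2 fold change of the members was -0.025 in -Fe against +Fe, with 0.016 in Fe resupply against +Fe, while resupplied plants set against -Fe gave 0.045, beside -0.0015, -0.0017 and 0.0022 over all 33159 features tested. The 3 comparisons share groups, and no test was made of these medians. As a share of the sum over all nuclear clusters, members took 5.75% to 5.89% in -Fe and 6.13% to 6.25% in +Fe. In Fe resupply they took 5.88% to 7.07%. Pericentromeric 24-nt clusters also took less in -Fe (5.54% to 5.69%) than in +Fe (5.81% to 6.08%). These shares were not tested.

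**Figure D2:**
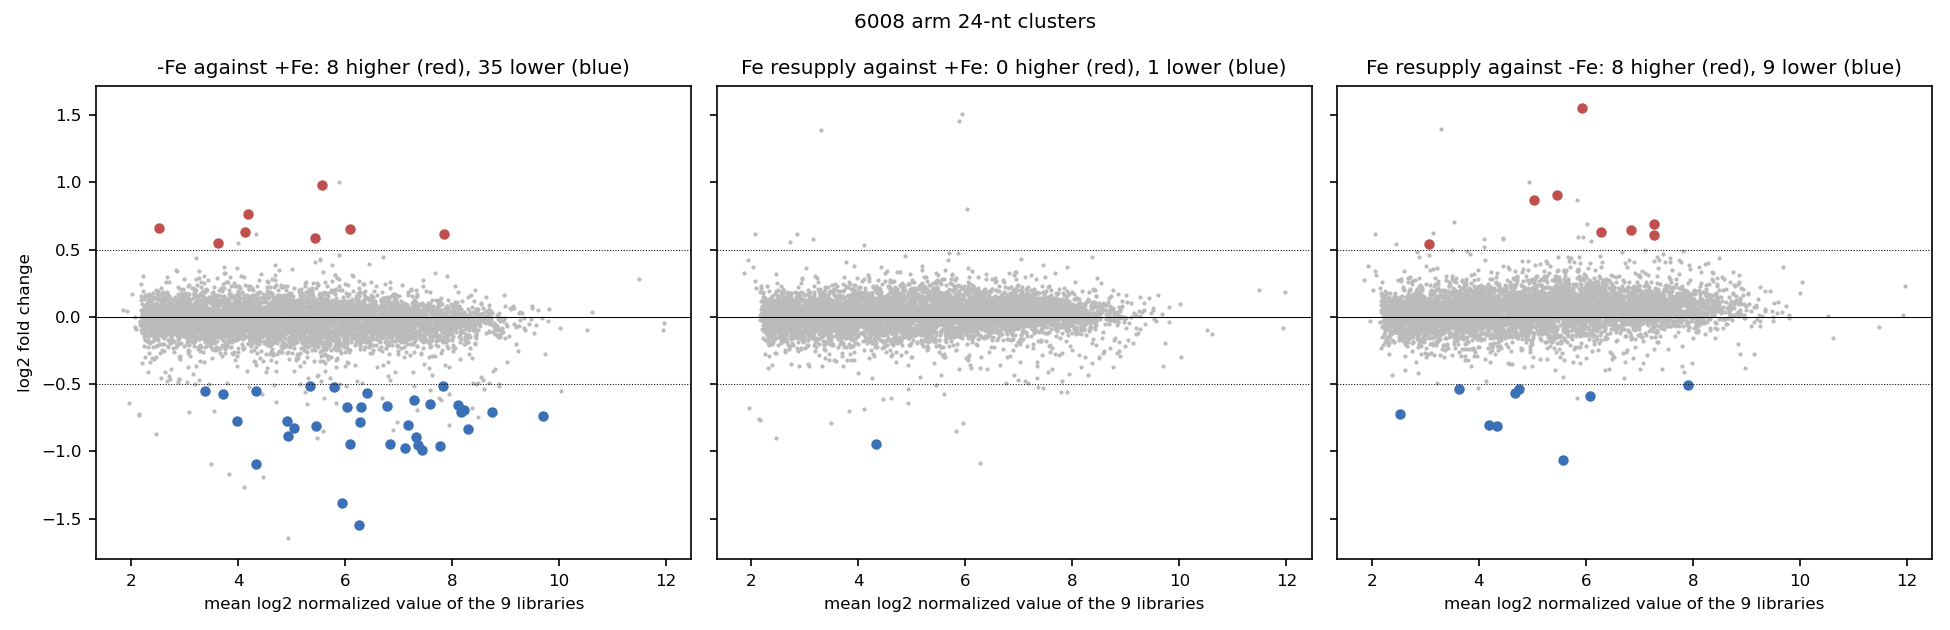
Log2 fold change (y axis) against the mean log2 normalized value over the 9 libraries (x axis) for the 6008 arm clusters in each comparison, with clusters that passed in red (higher) and blue (lower), and dotted lines at 0.5 and -0.5. Most clusters lie between the dotted lines in all 3 panels, and 43, 1 and 17 passed.

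In -Fe against +Fe, 8 members rose and 35 fell. A cluster passed when its Benjamini-Hochberg adjusted p was under 0.1 and its log2 fold change was above 0.5 or below -0.5, in a limma fit over all 33159 features and 9 libraries. All 6008 members were tested, with no filter on low values. The 8 that rose are 0.133% of the members, against 0.268% of all features (percent called), and the 35 that fell are 0.583%, against 0.235%. In the pericentromeres 3 of 8525 24-nt clusters rose and 8 fell (0.0938%). At an unadjusted p under 0.05 there were 485 members (8.07%), against 8.01% of the features that were not members. The 3 libraries of -Fe all lay above those of +Fe in 246 members (4.09%, against 7.15% of all features) and all below in 540 (8.99%, against 6.41%). The number of falls rested on single libraries. It was 12 without +Fe replicate 3, 10 without -Fe replicate 1 and 8 without -Fe replicate 3, and 59 without -Fe replicate 2 and 63 without +Fe replicate 1.

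All 8 rises were at protein-coding genes, and 6 of their leading RNAs lay in the sense strand of an exon, 1 in an intron and 1 just outside the gene. Only 2 of the 8 began with A. The largest was at CDI, a cadmium-induced gene annotated as a sugar transferase, on chromosome 1 from 24137497 to 24138724, with 5.88, 6.82 and 6.06 in the -Fe libraries, 5.02, 5.20 and 5.35 in the Fe resupply libraries, and 5.18, 5.07 and 5.58 in the +Fe libraries. All 3 -Fe libraries lay above the other 6, and the log2 fold change was 0.98 ± 0.17 (SE, n = 3 each, limma adjusted p = 0.00858). At AT1G07135, which encodes a glycine-rich protein, a cluster in the 3′ UTR on chromosome 1 from 2189984 to 2190637 had 4.74, 4.86 and 4.55 in the -Fe libraries, 4.02, 3.71 and 4.00 in the Fe resupply libraries, and 4.11, 3.77 and 3.96 in the +Fe libraries. It rose by 0.77 ± 0.11 (SE, n = 3 each, limma adjusted p = 0.00147), all 3 -Fe libraries lay above the other 6, and the Fe resupply and +Fe libraries overlapped.

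At bHLH39, a transcription factor of the iron deficiency response, the leading RNA of the cluster on chromosome 3 from 21086479 to 21087426 lay in an intron in sense. The level was 2.63, 3.56 and 2.76 in the -Fe libraries, 2.25, 2.31 and 2.21 in the Fe resupply libraries, and 2.28, 2.31 and 2.36 in the +Fe libraries, of which -Fe replicate 2 was the highest. It rose by 0.66 ± 0.15 (SE, n = 3 each, limma adjusted p = 0.0453). The call was lost without -Fe replicate 2, where the log2 fold change was 0.37, or without +Fe replicate 2 or +Fe replicate 3. The level was low, with a mean of 2.52 over the 9 libraries, and filters at 10 or 50 after undoing the logarithm left the cluster out. With eBayes without a trend it did not pass (limma adjusted p = 0.118). The cluster in the coding sequence of BTS, which encodes an E3 ligase that limits the iron deficiency response, had 3.86, 4.38 and 3.74 in the -Fe libraries, 3.32, 3.59 and 3.46 in the Fe resupply libraries, and 3.50, 3.34 and 3.50 in the +Fe libraries and rose by 0.55 ± 0.13 (SE, n = 3 each, limma adjusted p = 0.0605), which was lost when any 1 of -Fe replicates 1 and 2 and +Fe replicates 2 and 3 was left out, and was 0.35 without -Fe replicate 2. SRC2, a cold-regulated gene, had 6.57, 6.51 and 6.43 in the -Fe libraries, 5.97, 5.82 and 5.97 in the Fe resupply libraries, and 5.94, 5.52 and 6.07 in the +Fe libraries, and rose by 0.66 ± 0.12 (SE, n = 3 each, limma adjusted p = 0.00887), which was lost without +Fe replicate 2. The other rises were at RSH2, an enzyme of guanosine tetraphosphate metabolism, by 0.63 ± 0.11, at the cytochrome P450 gene CYP706A1 (Cluster_3778) by 0.62 ± 0.09, and at PATL2, a patellin named here after its values were seen, by 0.59 ± 0.14 (SE, n = 3 each). The limma adjusted p was 0.0074 at RSH2, 0.00168 at CYP706A1 and 0.0779 at PATL2. The rises at CDI, AT1G07135, RSH2 and CYP706A1 passed whichever single library was left out, and that at PATL2 in 1 of 6 such fits.

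Of the 35 falls, 18 overlapped no gene and 15 overlapped a protein-coding gene, 7 of them with the leading RNA in the sense strand of an exon. The leading RNA began with A in 25 and was found once in the genome in 34. The largest fall was at Cluster_26749 on chromosome 1 from 18225841 to 18226736, at the 5′ end of AT1G49260, annotated as a mechanosensitive ion channel-like gene. Its level was 5.29, 6.18 and 5.32 in the -Fe libraries, 5.53, 6.73 and 5.89 in the Fe resupply libraries, and 6.70, 7.19 and 7.53 in the +Fe libraries. The -Fe libraries lay below all +Fe libraries, and the log2 fold change was -1.54 ± 0.25 (SE, n = 3 each, limma adjusted p = 0.00322). Cluster_15993 on chromosome 5 from 701040 to 701325, within 1000 nt upstream of AT5G02995, had 5.06, 5.74 and 5.08 in the -Fe libraries, 4.97, 5.89 and 6.79 in the Fe resupply libraries, and 6.88, 6.39 and 6.75 in the +Fe libraries, and fell with a log2 fold change of -1.38 ± 0.28 (SE, n = 3 each, limma adjusted p = 0.0216). It passed in 3 of 6 fits with a library left out, was lost without -Fe replicate 1, -Fe replicate 3 or +Fe replicate 3, and its Fe resupply libraries ranged across both other groups.

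At FSD1, an iron superoxide dismutase, the cluster lay in the coding sequence on chromosome 4 from 12885489 to 12885680. The level was 4.01, 3.87 and 3.85 in the -Fe libraries, 4.07, 4.01 and 4.10 in the Fe resupply libraries, and 4.88, 5.15 and 4.98 in the +Fe libraries. Replicates of each treatment spread by an SD of 0.09, 0.05 and 0.14 in -Fe, Fe resupply and +Fe, and the -Fe and Fe resupply libraries were all lower than the +Fe libraries. The log2 fold change was -1.09 ± 0.10 (SE, n = 3 each, limma adjusted p = 1.52e-06). The leading RNAs of the 3 next largest falls lay outside protein-coding genes. Cluster_17452 lay 490 nt from a gene on chromosome 5 from 8825129 to 8826298. It had 6.64, 7.45 and 6.78 in the -Fe libraries, 7.05, 7.99 and 7.22 in the Fe resupply libraries, and 7.68, 7.92 and 8.24 in the +Fe libraries. After it came Cluster_9796 upstream of ML2, an RNA-binding MEI2-like gene, and Cluster_11497 at AT3G23650. The log2 fold changes of the 3 were -0.99 ± 0.20, -0.97 ± 0.20 and -0.96 ± 0.22 (SE, n = 3 each), with limma adjusted p of 0.027, 0.0301 and 0.0606. Each of these 3 was lost without -Fe replicate 1, -Fe replicate 3 or +Fe replicate 3. Cluster_11497 was also lost without +Fe replicate 2, so that it passed in 2 of 6 fits with a library left out.

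**Figure D3:**
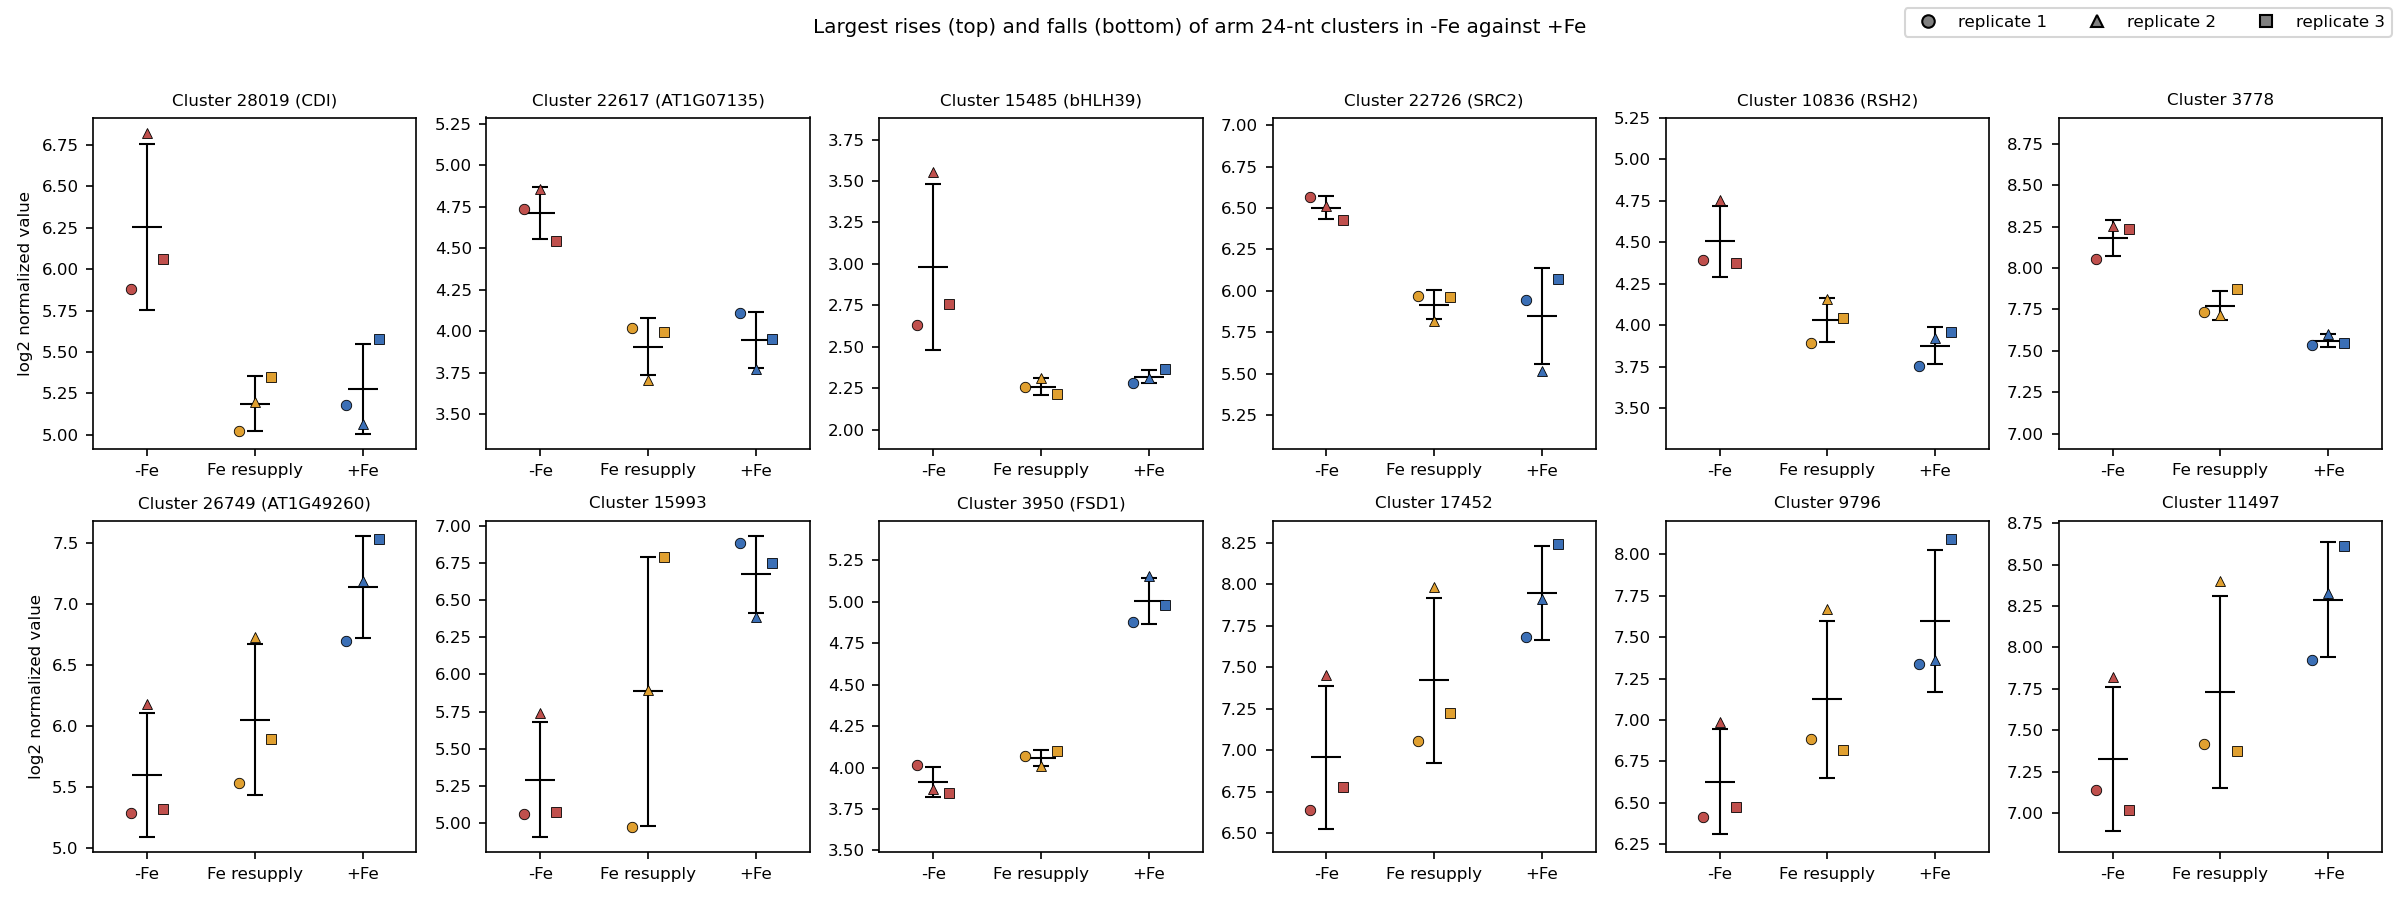
Log2 normalized value (y axis, a separate scale in each panel) of the 6 largest rises (top row) and 6 largest falls (bottom row) of arm 24-nt clusters in -Fe against +Fe. Points are libraries with 1 shape per replicate number, and bars are the mean and SD of 3 libraries. At CDI the -Fe libraries lie between 5.88 and 6.82, above all others, and at FSD1 the +Fe libraries lie between 4.88 and 5.15, above all others.

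Most falls shared an order of libraries within the groups, a pattern seen after the calls were known and given with no test. In 24 of the 35, -Fe replicate 2, Fe resupply replicate 2 and +Fe replicate 3 were each the highest of their group. The same order was seen in 369 of all 6008 members (6.14%), 7.50% of pericentromeric 24-nt clusters and 5.28% of all features. Averaged over the 35, the level was 5.94, 6.32 and 5.93 in the -Fe libraries, 6.26, 6.80 and 6.37 in the Fe resupply libraries, and 6.68, 6.78 and 7.10 in the +Fe libraries. The Fe resupply mean lay above the -Fe mean in all 35 and below the +Fe mean in 33. The 35 were chosen on -Fe lying below +Fe in these same libraries, so Fe resupply between them does not by itself show recovery. The median SD within groups of the 35 was 0.31, against 0.11 for all members. Fe resupply replicate 2 also had the highest member sum and the lowest nuclear sum of the 9 libraries, and its part in the falls was not tested.

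The falls that passed with any library left out were those at Cluster_26749, FSD1, CXIP2, Cluster_28124, Cluster_3452, Cluster_14917 and Cluster_27937. CXIP2, CAX-interacting protein 2, a glutaredoxin, Cluster_28124 and Cluster_27937, over the pseudogene AT1G64035, are named here after their values were seen. At CXIP2 the level was 5.32, 5.91 and 5.55 in the -Fe libraries, 6.06, 6.45 and 5.96 in the Fe resupply libraries, and 6.22, 6.52 and 6.86 in the +Fe libraries, with a log2 fold change of -0.94 ± 0.16 (SE, n = 3 each, limma adjusted p = 0.00459). Cluster_28124, 1761 nt from a gene on chromosome 1 from 24623878 to 24624561, had 4.40, 4.71 and 4.44 in the -Fe libraries, 4.56, 5.35 and 4.69 in the Fe resupply libraries, and 5.08, 5.58 and 5.56 in the +Fe libraries and a log2 fold change of -0.89 ± 0.16. Cluster_27937 had 6.11, 6.14 and 6.23 in the -Fe libraries, 6.34, 6.32 and 6.33 in the Fe resupply libraries, and 6.80, 6.61 and 6.75 in the +Fe libraries and a log2 fold change of -0.56 ± 0.09 (SE, n = 3 each), with adjusted p of 0.011 and 0.00367 in the limma fit. In Cluster_27937 the replicates of each treatment were close and the Fe resupply libraries lay between the other groups.

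**Figure D4:**
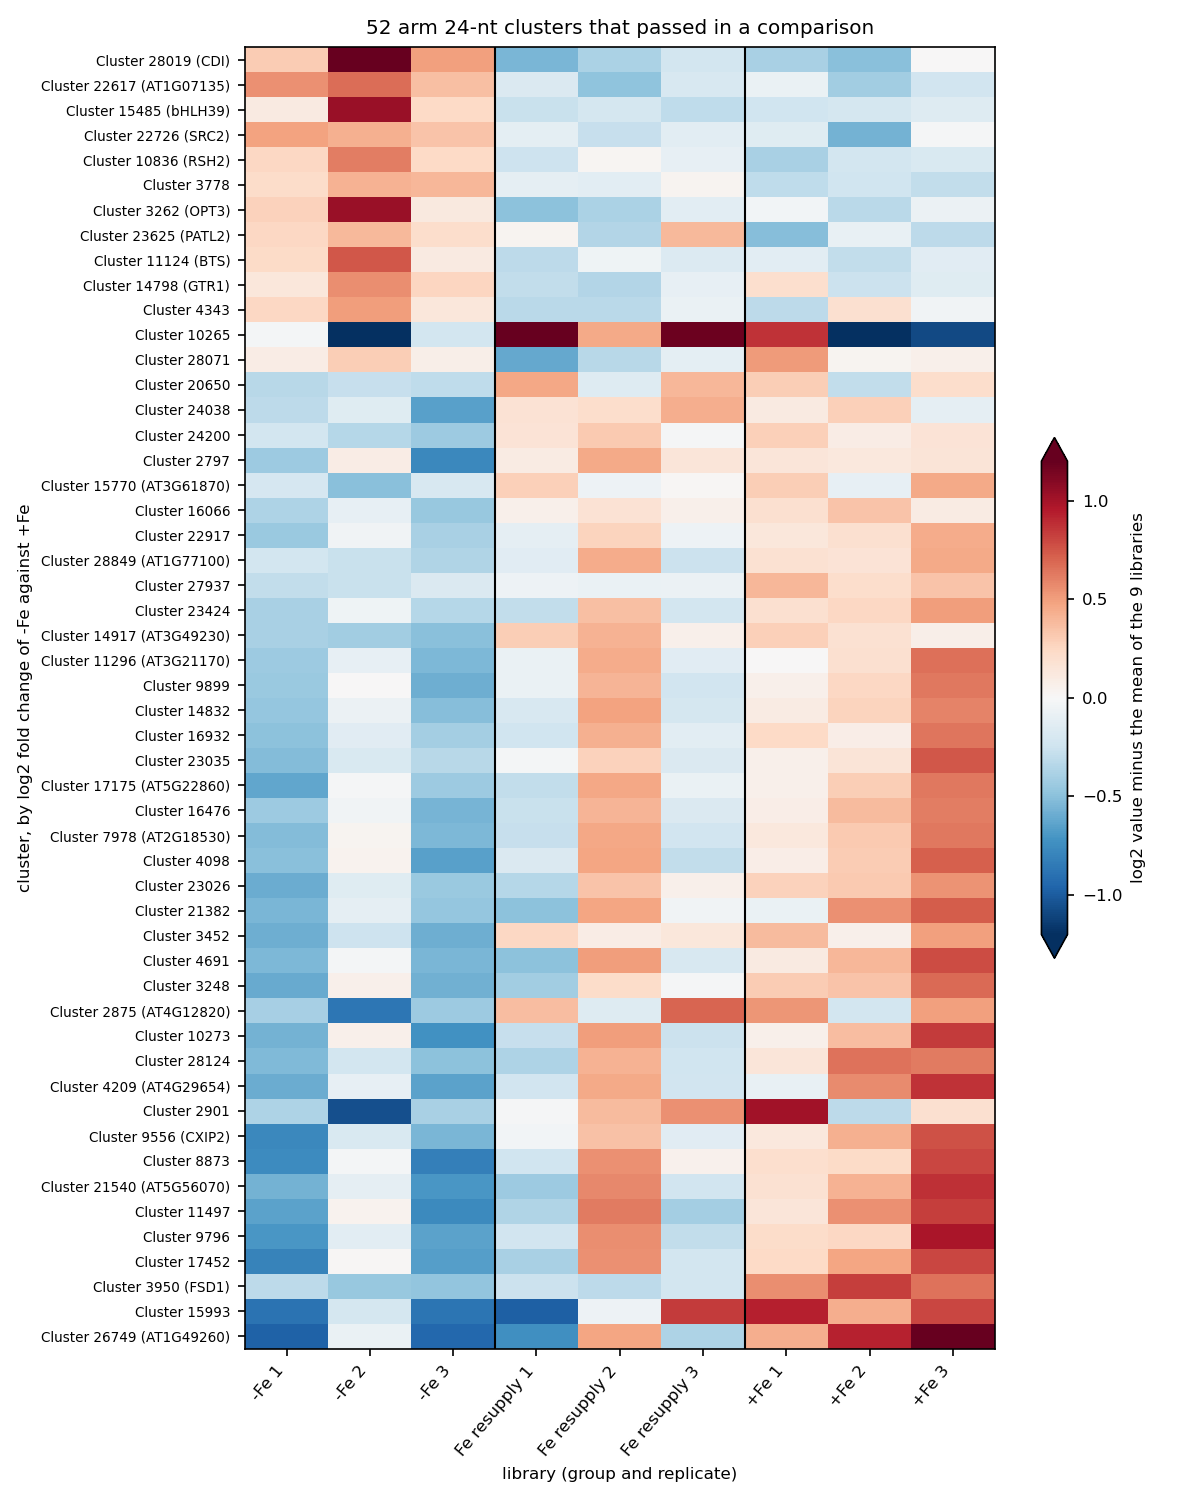
Log2 normalized value minus the mean of the 9 libraries (colour, cut at 1.2 and -1.2) for the 52 arm 24-nt clusters that passed in at least 1 comparison (rows, sorted by the log2 fold change of -Fe against +Fe) in each library (columns). Rows at the top are red in -Fe, and +Fe replicate 3 was the highest +Fe library in 27 of the 35 that fell.

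In Fe resupply against +Fe, FSD1 was the only member that passed. No member rose, against 0.0332% of all features, and 1 fell (0.0166%, against 0.0935%, with 0.127% of all features in both directions). At an unadjusted p under 0.05 there were 355 members (5.91%), against 6.79% of the other features. All 3 Fe resupply libraries lay above those of +Fe in 423 members (7.04%, against 5.35% of all features) and below in 200 (3.33%, against 5.73%). The log2 fold change at FSD1 was -0.94 ± 0.10 (SE, n = 3 each, limma adjusted p = 1.1e-05). Its Fe resupply libraries, with 4.07, 4.01 and 4.10, were close to the -Fe libraries, and the log2 fold change of Fe resupply against -Fe was 0.15 ± 0.10 (SE), which did not pass. The count of members was 12 without Fe resupply replicate 2, 5 without Fe resupply replicate 3, 7 without +Fe replicate 1, 7 without +Fe replicate 2 and 2 without Fe resupply replicate 1, and FSD1 passed in each.

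In Fe resupply against -Fe, 8 members rose and 9 fell. The 8 are 0.133% of the members, against 0.0513% of all features, and the 9 are 0.15%, against 0.476%, with 0.528% of all features in both directions. At an unadjusted p under 0.05 there were 561 members (9.34%), against 11.4% of the other features. All 3 Fe resupply libraries lay above those of -Fe in 728 members (12.1%, against 7.27% of all features) and below in 229 (3.81%, against 8.7%). Under quantile normalization 4 rose and 9 fell. Of the 9 that fell, 6 were led by an RNA in the sense strand of an exon, and of the 8 that rose 1 was. The largest fall was at CDI, with a log2 fold change of -1.07 ± 0.17 (SE, n = 3 each, limma adjusted p = 0.00678), and the next were at OPT3 and AT1G07135. OPT3 transports iron into the phloem, and the cluster in its coding sequence had 3.84, 3.96 and 4.21 in the Fe resupply libraries and 4.62, 5.37 and 4.45 in the -Fe libraries, a log2 fold change of -0.81 ± 0.16 (SE, n = 3 each, limma adjusted p = 0.0299), lost without Fe resupply replicate 2 and at -0.53 without -Fe replicate 2. Its difference in -Fe against +Fe, 0.62 ± 0.16, had the same direction as at bHLH39 and BTS but did not pass (limma adjusted p = 0.134). AT1G07135 changed by -0.81 ± 0.11, bHLH39 by -0.72 ± 0.15, SRC2 by -0.59 ± 0.12 and the glucosinolate transporter gene GTR1 by -0.56 ± 0.12 (SE, n = 3 each), with limma adjusted p of 0.00221, 0.0299, 0.0275 and 0.0441. AT1G07135 passed in 6 of 6 fits with a library left out, bHLH39 and SRC2 in 4 and GTR1 in 3. The call was lost without Fe resupply replicate 3 or -Fe replicate 2 at bHLH39, which stood at -0.43 without -Fe replicate 2, without Fe resupply replicate 2 or -Fe replicate 1 at SRC2, and without Fe resupply replicate 2, -Fe replicate 2 or -Fe replicate 3 at GTR1. At BTS the log2 fold change was -0.54 ± 0.13 (SE, n = 3 each, limma adjusted p = 0.0603), which passed in 2 of 6 such fits, was lost without Fe resupply replicate 1, Fe resupply replicate 3, -Fe replicate 1 or -Fe replicate 2, and stood at -0.35 without -Fe replicate 2.

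The rises in Fe resupply against -Fe were led by Cluster_10265, within 1000 nt upstream of AT3G04390 and of AT3G04400, a ribosomal protein gene, with 7.37, 6.39 and 7.11 in the Fe resupply libraries, 5.91, 4.57 and 5.72 in the -Fe libraries and 6.80, 4.69 and 4.85 in the +Fe libraries. Its log2 fold change was 1.56 ± 0.39 (SE, n = 3 each, limma adjusted p = 0.0781), and the call was lost when any 1 of 5 libraries was left out. Cluster_2901 at AT4G13220 and Cluster_2875 in AT4G12820, an F-box/kelch gene, rose by 0.91 ± 0.23 and 0.87 ± 0.19 (SE), with limma adjusted p of 0.082 and 0.0425, and both were lost without Fe resupply replicate 3, -Fe replicate 2 or -Fe replicate 3, Cluster_2901 also without Fe resupply replicate 2 or -Fe replicate 1, so that it passed in 1 of 6 fits and Cluster_2875 in 3. Cluster_24038, at the glutaredoxin gene GRX480, had 7.01, 7.05 and 7.27 in the Fe resupply libraries, against 6.52, 6.69 and 6.18 in the -Fe libraries, and rose by 0.65 ± 0.13 (SE, n = 3 each, limma adjusted p = 0.0191), which was lost without Fe resupply replicate 3 or -Fe replicate 3. Named here after their values were seen, the 2 falls over no gene, Cluster_4343 upstream of ASY2 and Cluster_28071 upstream of KOR2, had log2 fold changes of -0.54 ± 0.12 and -0.51 ± 0.13, and the remaining rises, Cluster_20650 and Cluster_2797, of 0.54 ± 0.14 and 0.61 ± 0.15 (SE, n = 3 each). Of these 4, Cluster_28071 and Cluster_20650 passed in 1 of 6 fits with a library left out, and Cluster_4343 and Cluster_2797 in 2. The total of 17 was 9 without -Fe replicate 3 (1 higher, 8 lower) and 11 without -Fe replicate 1 (5 higher, 6 lower).

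In all, 52 members passed in at least 1 comparison and 5956 in none. Both comparisons with -Fe called 8 members, which share the -Fe libraries. The clusters at CDI, AT1G07135, bHLH39, SRC2 and BTS were higher in -Fe than in both other groups. Cluster_14917, Cluster_3452 and Cluster_2875 were lower in -Fe than in both, the last in only 1 and 3 of 6 fits with a library left out. Cluster_14917 lies on chromosome 3 from 18254595 to 18255984 across AT3G49230, emb1796 and DMS3, the last of which encodes a factor needed for polymerase V transcripts in RdDM, and its leading RNA is antisense in an intron of AT3G49230. Its level was 6.89, 6.86 and 6.78 in the -Fe libraries, 7.58, 7.70 and 7.34 in the Fe resupply libraries, and 7.57, 7.46 and 7.35 in the +Fe libraries. The -Fe libraries lay below all others, with log2 fold changes of -0.61 ± 0.10 (SE, n = 3 each, limma adjusted p = 0.00496) relative to +Fe and, for Fe resupply relative to -Fe, 0.69 ± 0.10 (SE, n = 3 each, limma adjusted p = 0.00302), and both calls held with any library left out. Cluster_3452, within 1000 nt upstream of the F-box gene AT4G18380, had 5.70, 6.04 and 5.70 in the -Fe libraries, 6.54, 6.38 and 6.42 in the Fe resupply libraries, and 6.66, 6.35 and 6.78 in the +Fe libraries. Its log2 fold changes were -0.78 ± 0.12 for -Fe relative to +Fe and 0.63 ± 0.12 for Fe resupply relative to -Fe (SE, n = 3 each), with limma adjusted p of 0.00158 and 0.0144, and the call in Fe resupply against -Fe was lost without -Fe replicate 3.

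Of 13 genes known as RdDM targets, 3 had a member over the gene or within 1000 nt upstream, and none of these members passed. The same was so of 14 of 53 genes of iron homeostasis for having a member, and the share over all genes was not counted. At SDC, whose tandem repeats are a known RdDM target, the level was 8.14, 8.10 and 8.40 in the -Fe libraries, 8.01, 8.38 and 8.36 in the Fe resupply libraries, and 8.33, 8.42 and 8.12 in the +Fe libraries. At FAMA, a regulator of guard cells annotated as FMA, it averaged 6.10, and at the calmodulin-like gene CML41 7.85. The groups overlapped at each of the 3 in -Fe against +Fe, with log2 fold changes of -0.08 ± 0.12 at SDC, -0.06 ± 0.11 at FAMA and -0.03 ± 0.09 at CML41. Of 22 genes of the RdDM machinery, 5 had a member, 6 members in all. The cluster at DMS3 described above passed, where 0.235% of all features fell in -Fe against +Fe and 0.0513% rose in Fe resupply against -Fe. The other 5 did not, with log2 fold changes in -Fe against +Fe from 0.01 upstream of NRPE1, the largest subunit of polymerase V, to 0.17 upstream of NRPD1, that of polymerase IV. The others lay upstream of CLSY4 (annotated CHR40), which guides polymerase IV to its loci, where the cluster also overlaps SYP32, and at and upstream of SUVH9, which helps to recruit polymerase V.

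At 53 genes of iron homeostasis, 14 had a member, 17 members in all, of which 7 were led by an RNA in the sense strand of an exon. In -Fe against +Fe, 2 rose (bHLH39 and BTS) and 1 fell (FSD1), where 0.268% of all features rose and 0.235% fell. In Fe resupply against +Fe only FSD1 passed, where 0.0935% of all features fell. In Fe resupply against -Fe 3 fell (OPT3, bHLH39 and BTS), where 0.476% of all features fell. The leading RNAs at BTS, FSD1 and OPT3 lay in the sense strand of an exon, and that at bHLH39 in an intron in sense. The median log2 fold change of the 17 was 0.012 in -Fe against +Fe, with -0.00085 in Fe resupply against +Fe, while resupplied plants set against -Fe gave 0.074, positive although the 3 that passed there fell. BTS had a further cluster, led by an intron RNA, with 4.37, 4.82 and 3.86 in the -Fe libraries, 3.79, 3.88 and 3.79 in the Fe resupply libraries, and 3.84, 3.64 and 3.92 in the +Fe libraries, which did not pass. Clusters upstream of these genes did not pass. The one upstream of PYE, a repressor of the iron response, had 5.90, 5.75 and 5.91 in the -Fe libraries, 5.97, 6.01 and 6.09 in the Fe resupply libraries, and 5.95, 5.97 and 5.97 in the +Fe libraries, and the one upstream of IRT3, a metal transporter, had 7.58, 7.55 and 7.61 in the -Fe libraries, 7.60, 7.78 and 7.70 in the Fe resupply libraries, and 7.71, 7.55 and 7.55 in the +Fe libraries. Those at FRO6 and FRO7, ferric reductases of leaves, NAS1, an enzyme of nicotianamine synthesis, ILR3 and bHLH104, transcription factors of the iron deficiency response, and upstream of YSL2, a transporter of nicotianamine complexes, had log2 fold changes from -0.13 to 0.11 in -Fe against +Fe. The one upstream of FRO3 had -0.30 ± 0.10 (SE) and that upstream of AT1G18910 -0.14 ± 0.11 (SE), and neither passed.

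The transcripts that the study listed as iron-regulated, chosen on RNA of plants under the same treatments, were also set against the members. Of 145 genes listed as higher in -Fe, 28 had 31 members, of which 5 rose and none fell in -Fe against +Fe (CDI, AT1G07135, bHLH39, RSH2 and BTS), and 5 fell in Fe resupply against -Fe. Of all features, 0.268% rose and 0.235% fell in -Fe against +Fe, and 0.476% fell in Fe resupply against -Fe. Of 83 genes listed as lower, 17 had 19 members, of which 2 fell (FSD1 and AT3G61870) and none rose. The level at AT3G61870 was 5.13, 4.84 and 5.14 in the -Fe libraries, 5.62, 5.27 and 5.34 in the Fe resupply libraries, and 5.63, 5.24 and 5.79 in the +Fe libraries, with a log2 fold change of -0.52 ± 0.13 (SE, n = 3 each, limma adjusted p = 0.0949), which passed in 1 of 6 fits with a library left out. The leading RNAs at CDI, AT1G07135, RSH2, BTS, FSD1 and AT3G61870 lay in the sense strand of an exon. That at bHLH39 lay in an intron in sense, and how these RNAs were made was not tested. Of the 31 and 19 members, 10 and 5 were led by an RNA in the sense strand of an exon. The medians of the log2 fold changes in -Fe against +Fe were 0.034 and -0.060. These lists were chosen by the study on related samples and are not independent evidence of direction.

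A small number of members varied strongly between replicates of a treatment, and they are named here after their values were seen. In 29 members (0.483%) the SD within groups was over 0.5 on the log2 scale, against 4 of 8525 pericentromeric 24-nt clusters (0.0469%). The share was 0.170% of all nuclear clusters and 0.238% of all features. The median SD was 0.111 for members, 0.106 for pericentromeric clusters and 0.111 for all features. Of the 29, 23 overlapped no gene, 28 had a leading RNA with a single genome match, 21 began with A, and their median width was 286 nt. Cluster_11660, overlapping AT3G25577 on chromosome 3 from 9292088 to 9292186, stood at 7.08 in Fe resupply replicate 3 and between 2.74 and 2.87 in the other 8 libraries. In Cluster_3099, Cluster_299, Cluster_23348 upstream of DMS11 and Cluster_21856, Fe resupply replicate 3, +Fe replicate 1 and +Fe replicate 3 were above the middle of the range and the other 6 libraries below it. Cluster_3099 had 4.10, 3.98 and 4.09 in the -Fe libraries, 4.28, 4.41 and 6.48 in the Fe resupply libraries, and 6.47, 4.01 and 6.61 in the +Fe libraries. Cluster_299, overlapping the gene of the MAP kinase MPK4, had 3.82, 4.00 and 3.79 in the -Fe libraries, 3.74, 3.95 and 5.67 in the Fe resupply libraries, and 5.85, 3.73 and 5.62 in the +Fe libraries. Another 4 members were above the middle in +Fe replicate 1 alone. In Cluster_24026 and Cluster_8286, over non-coding RNA genes, and Cluster_21033, -Fe replicate 2 and +Fe replicate 2 were below the middle of the range, together with Fe resupply replicate 2 in Cluster_24026 and Cluster_21033 and +Fe replicate 3 in Cluster_24026. Cluster_24026 had 6.85, 4.51 and 6.85 in the -Fe libraries, 7.43, 5.49 and 6.63 in the Fe resupply libraries, and 6.01, 4.59 and 4.59 in the +Fe libraries.

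Of the 29, Cluster_26749 and Cluster_15993 passed in -Fe against +Fe and Cluster_10265 in Fe resupply against -Fe. Cluster_3099 had a log2 fold change of -1.64 ± 0.50 in -Fe against +Fe (limma adjusted p = 0.251) although +Fe replicate 2 stood at the level of the -Fe libraries. Among the 29, +Fe replicate 1 was above the middle of the range in 22, Fe resupply replicate 3 in 20 and +Fe replicate 3 in 14, and each other library in 2 to 8. With these 3 libraries left out, which leaves 1 +Fe library assumed to vary like the rest, 5 members rose and 10 fell in -Fe against +Fe, of which 10 are among the 43, and 28 passed in Fe resupply against -Fe.

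**Figure D5:**
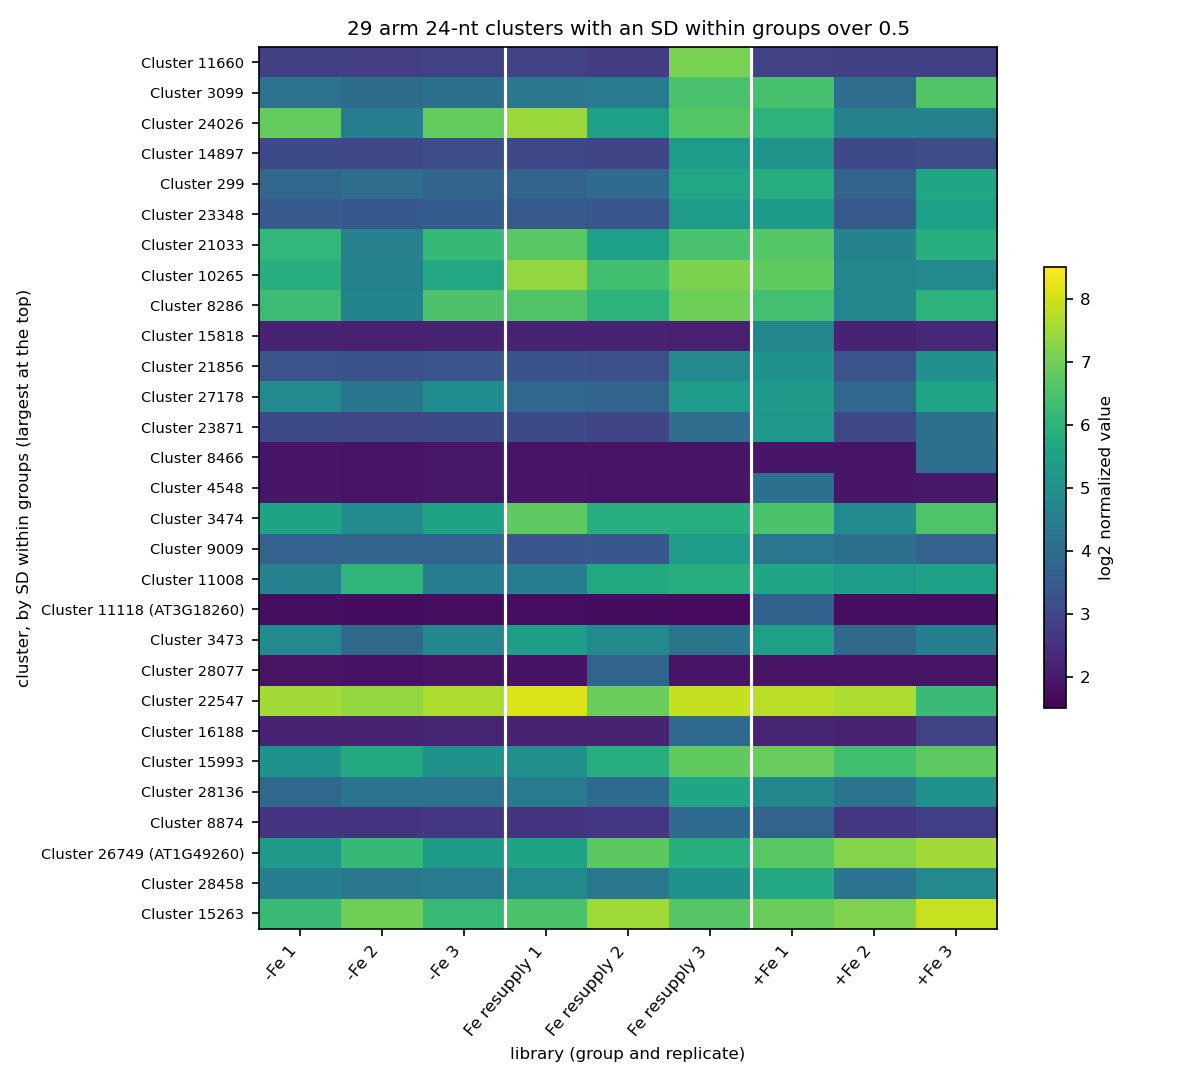
Log2 normalized value (colour) of the 29 arm 24-nt clusters with an SD within groups over 0.5 (rows, the largest SD at the top) in each library (columns). Single libraries stand out, such as Fe resupply replicate 3 at 7.08 in the top row, and Fe resupply replicate 3, +Fe replicate 1 and +Fe replicate 3 are high together in 4 rows.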

How the data were processed

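Small RNA was measured in 9 shoot libraries. Per the labels and the study's methods, the authors trimmed reads with Cutadapt, called clusters of RNAs of 17 to 29 nt with ShortStack on TAIR10 and compared counts with DESeq2; versions are not given in the sources used here. The table holds log2 normalized values as deposited by the authors, with no raw counts. The transformation is not given in the sources used here, and how it treats small values was not tested. For this reason limma 3.58.1 (R 4.3.3) was used, with eBayes with a trend over 33159 features (12 constant ones left out). The fit was run on simulated data with noise independent between features, which cannot speak to library patterns shared by many clusters. Leading RNAs were searched in TAIR10.1, and clusters joined to its genes with an overlap of at least 1 base or 1000 bases upstream, on either strand. The SE and p-values rest on the spread between replicates, pooled over the 3 groups and drawn by eBayes towards a trend over all features. A cluster with a wide spread can therefore have a smaller SE than its own replicates would give. Cluster_26749, with an SD within groups of 0.52 and an SE of 0.25, is such a case. Members and lists were chosen with earlier results of these data known. Named members are the 6 largest rises and falls per comparison with libraries apart, the 5 highest, list members, those passing in both comparisons with -Fe and the most shared RNAs, and the most variable were named after their values were seen. Alternatives were other filters, a pseudocount of 1, scalings, thresholds, memberships, fewer libraries and a replicate block. Python 3.11.15, numpy 2.4.6 and pandas 2.3.3 were used.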

Additional observations from a re-analysis of the deposited data

How the results depend on the processing

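No fold change of a member in a comparison where it passed turned its sign under the alternatives run. Fold changes that did not pass are not covered by this, and small ones among them can turn when a library is left out. In -Fe against +Fe the count of members that passed (43) was 10 when features averaging under 50 after undoing the logarithm were left out, 24 with eBayes without a trend, 28 under quantile normalization (8 higher, 20 lower), 67 with only the groups compared, 25 at an adjusted p under 0.05, 3 at a log2 fold change of at least 1, and 15 without the 3 libraries in which the variable members were high. Leaving out single libraries gave 17 to 71. Fe resupply against +Fe (1) gave 0 with that filter, at a log2 fold change of at least 1, and without sense exon, tRNA and miRNA members, 3 with RNAs of 23 or 24 nt, 8 without the 3 libraries, and 1 to 12 without single libraries. Fe resupply against -Fe (17) gave 7 with that filter, 10 at an adjusted p under 0.05, 2 at a log2 fold change of at least 1, 28 without the 3 libraries, 10 without sense exon, tRNA and miRNA members, 13 (4 higher, 9 lower) under quantile normalization, and 9 to 19 without single libraries. The median log2 fold change in Fe resupply against -Fe (0.045) was 0.069 with that filter, 0.062 under median centring and 0.033 to 0.061 without single libraries, and that in Fe resupply against +Fe (0.016) was 0.00427 to 0.031 and that in -Fe against +Fe (-0.025) was -0.033 to -0.017 without single libraries. Leaving out sense exon, tRNA and miRNA members or the 3 libraries was chosen after seeing the data. Of the 43, that filter left out 15, and 18 more were tested and did not pass, while of the 17 it left out 9 and 1 more did not pass. The causes of the moves were not tested.

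Deviations of same-numbered libraries correlated with r from -0.059 to 0.10, and those of differently numbered libraries with r from -0.115 to 0.158. These correlations cannot decide whether same-numbered samples were grown or prepared together. With the replicate block, -Fe against +Fe gave 72 members (11 higher, 61 lower), while Fe resupply gave 7 against +Fe and 23 against -Fe. All members called without the block were among them. Without the block, 4 of the 8 rises and 7 of the 35 falls in -Fe against +Fe passed whichever single library was left out.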
